A study of Bos taurus with 34 samples.

Results

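The genes described here were chosen by their lower transcript abundance in peripheral white blood cells (PWBC) of non-pregnant heifers, in earlier results from the same libraries. They were SPRY2 (ENSBTAG00000001774), MGAT4D (ENSBTAG00000034281), DEPDC7 (ENSBTAG00000021809), RABGGTB (ENSBTAG00000018447), SMIM26 (ENSBTAG00000051249) and N6AMT1 (ENSBTAG00000001412), 6 of the 27570 genes in the PWBC count table. All 6 of the 6 genes were among the 10942 kept for testing, which had a normalised count of at least 2 CPM in 5 or more libraries (CPM, counts of a gene scaled to a common library total). SPRY2 and MGAT4D were selected on the contrast of non-pregnant heifers with both pregnant groups, DEPDC7 on the contrast with heifers pregnant by bulls, and RABGGTB, SMIM26 and N6AMT1 on the contrast with heifers pregnant by artificial insemination. Their values in non-pregnant against pregnant heifers are therefore a description, with no test.

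Blood came from yearling Angus-Simmental crossbred heifers, all vaccinated alike, synchronized for estrus and inseminated at a fixed time with semen from the same bull, and it was drawn on the day of artificial insemination (AI). Palpation later in the season sorted the heifers into those pregnant to AI (AI-preg, n = 6), those pregnant from natural breeding with bulls after AI had failed (NB-preg, n = 6) and those without a pregnancy at the end of the season (non-pregnant, n = 5). Each heifer gave 1 PWBC mRNA library, made from a buffy coat after lysis of red cells, and 1 small RNA library from plasma. PWBC are a mixture of white cell types, so that fewer cells of a type and less RNA per cell cannot be told apart in any value below.

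Receptor tyrosine kinases signal in leukocytes through RAS and ERK, and Sprouty proteins such as SPRY2 are feedback inhibitors of that cascade. Rab GTPases, which direct vesicle traffic and the release of granules, work on membranes only once Rab geranylgeranyl transferase has added a lipid to them, and RABGGTB encodes the beta subunit of that enzyme. The role of each other gene is given where its levels are described.

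The PWBC libraries differed in depth between the groups. AI-preg libraries held between 15353819 and 67192941 counts, with a median of 32535945, and NB-preg libraries held between 6402207 and 56867279, with a median of 19195350. Non-pregnant libraries held between 4184999 and 20164587, with a median of 8175887, so that the non-pregnant group was the shallowest by its median, and levels were compared as CPM of the counts in kept genes. The libraries of non-pregnant heifers 94, 107 and 113 also stood apart. On the first principal component, which carried 45.4% of the variance over kept genes, they lay at 104, 81.3 and 115, whereas non-pregnant heifers 101 and 115 lay at -2.35 and -136. Pregnant heifers lay between -117 and 69.5, so that heifer 115 was outside their range as well, at the other end.

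As a check of the tissue, 3 of 4 general leukocyte markers were identified and kept (PTPRC, LAPTM5 and CORO1A). Their summed level had a median of 3736 CPM in AI-preg and 3827 CPM in NB-preg, and it was 2291, 5951, 3202, 2967 and 3047 CPM in non-pregnant heifers 94, 101, 107, 113 and 115. The most abundant of them was LAPTM5, with a median of 2468 CPM in AI-preg, 2918 in NB-preg and 2529 in non-pregnant heifers. The other markers differed more between the groups, and in opposite directions. In the same order of groups PTPRC had medians of 1788, 563 and 452 CPM, and CORO1A had 44.6, 28.6 and 143 CPM. White cell transcripts were thus plentiful in all 3 groups. Of the neutrophil markers, 4 of 8 were identified and kept (CXCR2, TREM1, CSF3R and S100A12). Markers could be identified only by a symbol in the study's supplementary tables, which report results from these libraries. The 4 are therefore no neutral sample of the 8, which limits the neutrophil marker level used further on as well. Their summed level ranged from 76.7 to 4132 CPM in AI-preg and from 220.1 to 2865 CPM in NB-preg. In non-pregnant heifers 94, 107 and 113 the sum was 12979, 11391 and 12197 CPM, above every pregnant heifer, and in heifers 101 and 115 it was 557 and 167 CPM, within the range of the AI-preg heifers. S100A12, a calcium-binding protein of neutrophil granulocytes, was the most abundant of these markers, with medians of 975, 851 and 10637 CPM in the same order of groups. The neutrophil markers were thus high in non-pregnant heifers 94, 107 and 113 and not in heifers 101 and 115. Depth was lowest in the non-pregnant group by its median, with overlap between the groups. The levels of the 6 genes are set beside both further on.

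**Figure D1:**
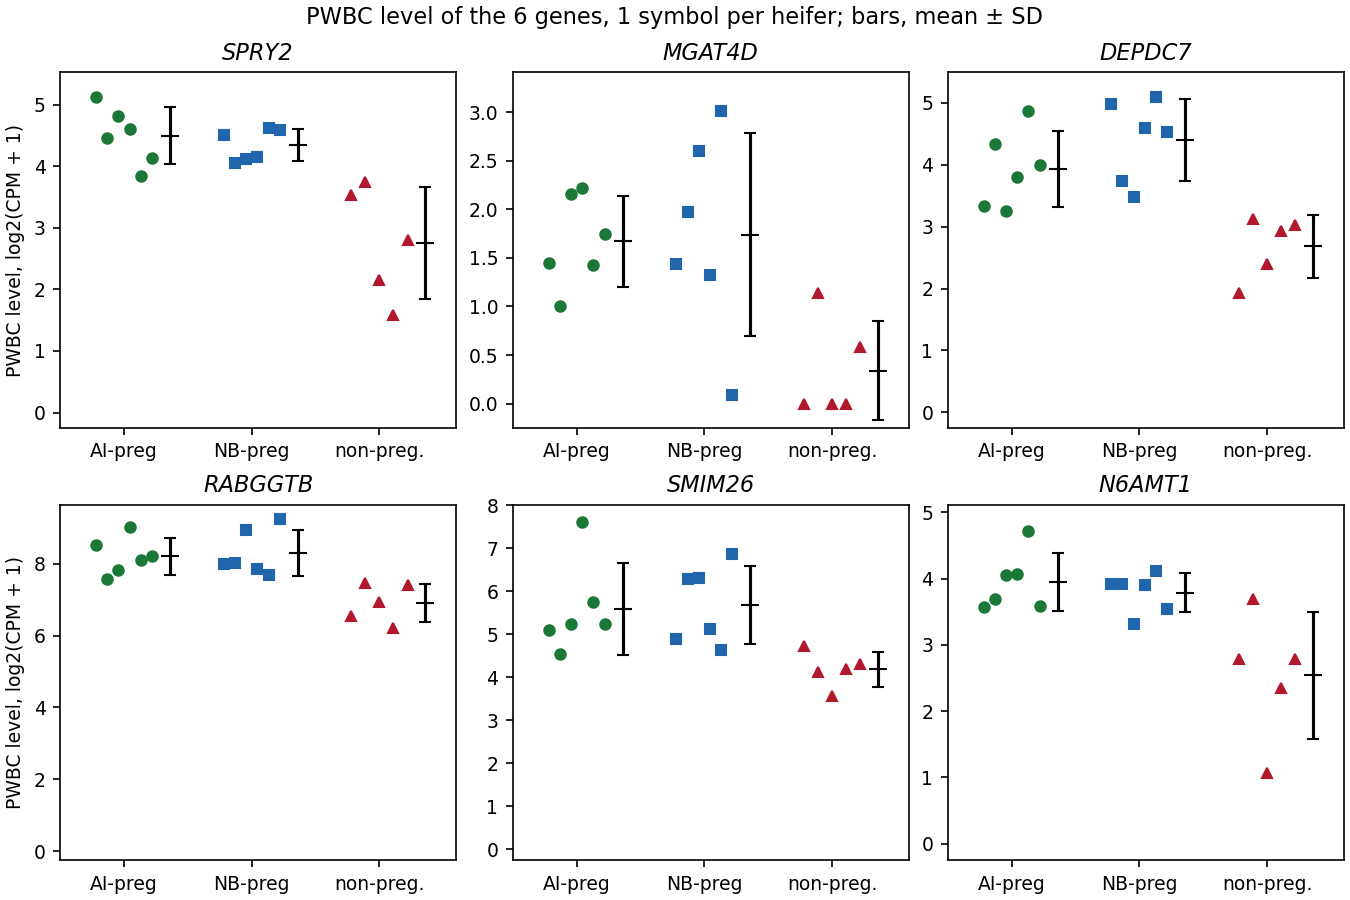
Transcript abundance of the 6 genes in PWBC, as log2(CPM + 1), with 1 symbol per heifer and bars for the mean and SD of each group. In CPM over kept-gene totals, every non-pregnant heifer lies below every pregnant heifer for SPRY2, DEPDC7 and RABGGTB. The groups overlap for MGAT4D, SMIM26 and N6AMT1. The separation of DEPDC7 and RABGGTB does not hold under TMM scaling.

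Among the signalling genes, SPRY2 was at 13.4 CPM in the lowest AI-preg heifer, 22.1 at the median and 34.0 in the highest. In NB-preg heifers SPRY2 ran from 15.6 over a median of 19.3 to 23.6 CPM. In non-pregnant heifers 94, 101, 107, 113 and 115 it was 10.5, 12.5, 3.43, 1.99 and 6.02 CPM. The groups did not overlap for SPRY2, but heifer 101 at 12.5 CPM was close to the lowest pregnant heifer, at 13.4 CPM, and the non-pregnant heifers spread more on the log2 scale, though not in CPM, than the AI-preg heifers did. On the log2(CPM + 1) scale the mean level was 4.50 ± 0.46 (SD, n = 6) in AI-preg, 4.34 ± 0.26 (SD, n = 6) in NB-preg and 2.76 ± 0.91 (SD, n = 5) in non-pregnant heifers. The fitted log2 fold change of SPRY2 was -1.72 ± 0.50 (SE) in non-pregnant minus AI-preg and -1.51 ± 0.50 (SE) in non-pregnant minus NB-preg.

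DEPDC7, a DEP-domain protein that has been linked to NF-kB signalling, was at 8.55 CPM in the lowest AI-preg heifer, 13.9 at the median and 28.2 in the highest. Its NB-preg levels ran from 10.1 over a median of 22.5 to 33.2 CPM. The non-pregnant heifers, in the order given for SPRY2, had 2.78, 7.67, 4.29, 6.57 and 7.13 CPM. All of these lay below the lowest pregnant heifer, by a narrow margin for heifer 101. Mean levels of DEPDC7 were 3.93 ± 0.61 (SD, n = 6), 4.40 ± 0.66 (SD, n = 6) and 2.68 ± 0.51 (SD, n = 5) on the log2 scale in the AI-preg, NB-preg and non-pregnant groups. The log2 fold change was -1.45 ± 0.51 (SE) against AI-preg and -1.94 ± 0.52 (SE) against NB-preg.

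RABGGTB, the Rab geranylgeranyl transferase subunit, was at 191 CPM in the lowest AI-preg heifer, 284 at the median and 516 in the highest. NB-preg heifers had between 207 and 607 CPM, with a median of 256. Non-pregnant heifers 94, 101, 107, 113 and 115 had 92.6, 175, 121, 72.5 and 169 CPM, again without overlap, with heifers 101 and 115 nearest to the pregnant range. RABGGTB had a mean log2 level of 8.21 ± 0.51 (SD, n = 6) in AI-preg, 8.29 ± 0.64 (SD, n = 6) in NB-preg and 6.91 ± 0.54 (SD, n = 5) in non-pregnant heifers. Its log2 fold change was -1.30 ± 0.39 (SE) against AI-preg and -1.44 ± 0.39 (SE) against NB-preg.

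MGAT4D is a relative of the Golgi N-acetylglucosaminyltransferases that branch N-glycans, with no such activity of its own assumed here. It was the gene with the fewest counts. AI-preg heifers had 1.00 CPM at the lowest, 2.05 at the median and 3.67 at the highest, and NB-preg heifers had 0.0666, 2.31 and 7.04 CPM. No count was found in non-pregnant heifers 94, 107 and 113, which allows up to 0.194, 0.368 and 0.149 CPM (3 counts), and non-pregnant heifers 101 and 115 had 1.2 CPM (5 counts) and 0.492 CPM (4 counts). The exact 95% Poisson interval, which covers counting error only, ran from 0.389 to 2.80 CPM for heifer 101 and from 0.134 to 1.26 CPM for heifer 115. The groups overlapped, since NB-preg heifer 121 had a single MGAT4D count and heifer 101 reached the level of the lowest AI-preg heifer. Mean log2 levels were 1.67 ± 0.47 (SD, n = 6) in AI-preg, 1.74 ± 1.04 (SD, n = 6) in NB-preg and 0.34 ± 0.51 (SD, n = 5) in non-pregnant heifers. The non-pregnant mean became 0.52 with the 3 empty libraries set to 3 counts, and 0.14 without heifer 101. The fitted log2 fold change of MGAT4D, -3.01 ± 1.26 (SE) against AI-preg and -3.39 ± 1.28 (SE) against NB-preg, rests on libraries with few or no counts and had the widest error of the 6 genes. Without heifer 101 these values were -4.41 and -4.80.

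N6AMT1, which with its partner TRMT112 methylates the translation release factor eRF1, was at 10.9 CPM in the lowest AI-preg heifer, 13.8 at the median and 25.4 in the highest. In NB-preg it ran from 8.92 over a median of 14.1 to 16.3 CPM. The non-pregnant heifers 94, 101, 107, 113 and 115 had 5.94, 12, 1.10, 4.08 and 5.90 CPM. For N6AMT1, 4 of 5 non-pregnant heifers lay below all pregnant heifers, and heifer 101 lay within the range of both pregnant groups. Its mean log2 level was 3.95 ± 0.44 (SD, n = 6), 3.79 ± 0.30 (SD, n = 6) and 2.54 ± 0.96 (SD, n = 5) in that order of groups, with a log2 fold change of -1.39 ± 0.54 (SE) against AI-preg and -1.18 ± 0.54 (SE) against NB-preg.

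SMIM26, a small protein of mitochondrial membranes, ranged widely among pregnant heifers. It was at 22.4 CPM in the lowest AI-preg heifer, 36.9 at the median and 196 in the highest (heifer 117), and NB-preg heifers had between 23.9 and 115 CPM with a median of 55.5. Non-pregnant heifers 94, 101, 107, 113 and 115 had 25.3, 16.5, 10.9, 17.4 and 18.9 CPM. Here heifer 94, not heifer 101, was the highest of the non-pregnant group and reached the pregnant range, and the other 4 lay below it. The mean log2 level of SMIM26 was 5.59 ± 1.07 (SD, n = 6) in AI-preg, 5.68 ± 0.91 (SD, n = 6) in NB-preg and 4.19 ± 0.41 (SD, n = 5) in non-pregnant heifers. The log2 fold change was -1.83 ± 0.58 (SE) against AI-preg, which became -1.04 without AI-preg heifer 117, and -1.74 ± 0.58 (SE) against NB-preg.

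For all 6 genes the order of the group means was the same at its low end, with the non-pregnant group lowest, as the choice of genes fixes. The next step of that order, between AI-preg and NB-preg, was smaller than the SD within either group for SPRY2, MGAT4D, DEPDC7, RABGGTB, SMIM26 and N6AMT1 alike. In CPM over kept-gene totals, every non-pregnant heifer was below every pregnant heifer for 3 of 6 genes, against 0.174% of all kept genes. In the single contrasts such a separation was found in 0.347% of kept genes against AI-preg, in 0.439% against NB-preg, and in 0% for AI-preg below NB-preg. Since the contrast chose the genes, nothing is read from these shares. CPM is not corrected for gene length, so that levels were not compared between genes.

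Over the pregnant heifers the SD of the log2 level, pooled within groups, was 0.37 for SPRY2 and for N6AMT1, 0.58 for RABGGTB, 0.64 for DEPDC7, 0.81 for MGAT4D and 0.99 for SMIM26, against a median of 0.85 over all kept genes. In non-pregnant heifers the median SD over kept genes was 1.10. Several of these SDs rest on single heifers. The SD of SMIM26 in AI-preg went from 1.07 to 0.43 without heifer 117, and that of N6AMT1 in AI-preg from 0.44 to 0.25 without heifer 119. In non-pregnant heifers the SD went from 0.96 to 0.57 for N6AMT1 and from 0.41 to 0.26 for SMIM26 without heifer 107, from 0.51 to 0.32 for DEPDC7 without heifer 94, and from 0.51 to 0.29 for MGAT4D without heifer 101. Under TMM scaling the SD of SPRY2 in NB-preg was 0.56 in place of 0.26. The genes were therefore not ranked by their spread.

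**Figure D2:**
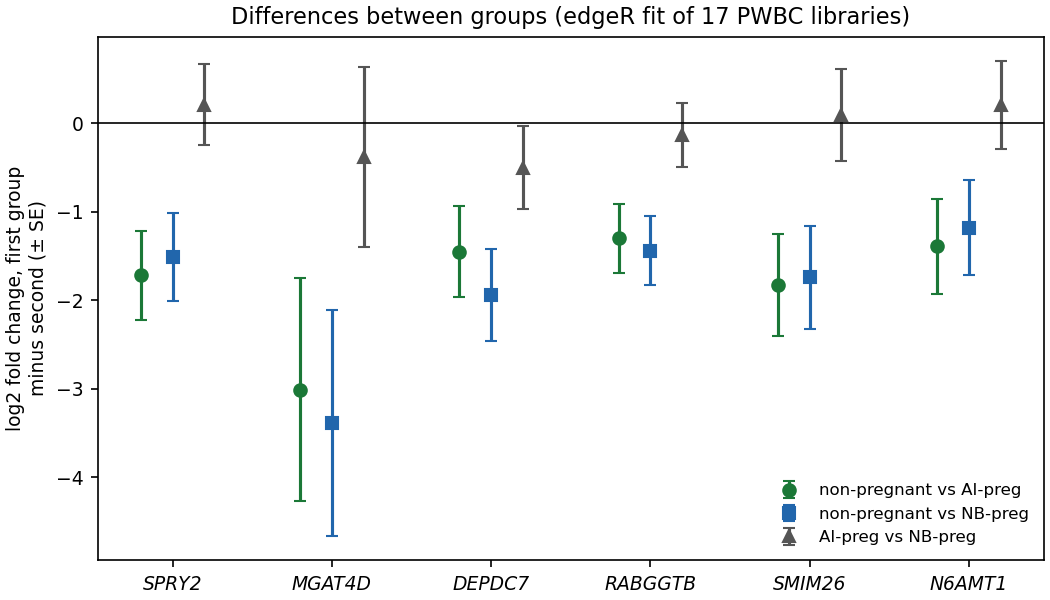
Fitted log2 fold change of each gene (first group minus second, with bars of 1 SE) for non-pregnant against AI-preg, non-pregnant against NB-preg and AI-preg against NB-preg heifers. The contrasts with non-pregnant heifers, which chose the genes, lie between -3.39 and -1.18, and those between the pregnant groups lie between -0.50 and 0.21.

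Over all 10942 kept genes, edgeR quasi-likelihood tests called 0 genes at an adjusted p under 0.05 in non-pregnant against AI-preg (0%) and 0 in non-pregnant against NB-preg (0%). At an unadjusted p under 0.05 edgeR had 585 and 672 genes, of which 301 and 364 were lower in non-pregnant heifers. Single heifers moved these counts, with 1654 genes without heifer 101, 1506 without 115 and 241 without 113 against AI-preg, and 1304, 1883 and 280 in the same order against NB-preg. DESeq2 called 5 and 11 genes, all of them higher in non-pregnant heifers. A further rule was like that of the study's methods, but without its leave-one-out step and its limit to protein-coding genes. Its counts are therefore not comparable with those of the study. With a p of at most 0.03 by both the edgeR likelihood ratio test and the DESeq2 Wald test, 360 genes (3.29%) were called against AI-preg and 434 (3.97%) against NB-preg. Of these, 76 (0.695%) and 136 (1.24%) were lower in non-pregnant heifers, so that the balance of higher and lower genes differed between the rules. By this rule 5 of the 6 genes were called against AI-preg, where RABGGTB was not, and 5 against NB-preg, where N6AMT1 was not. These are counts on the contrasts that chose the genes and carry no weight of their own. The 2 contrasts also share the non-pregnant libraries.

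The comparison of AI-preg with NB-preg asked whether the genes differed between heifers that conceived early and those that conceived late. The levels of the pregnant groups entered the choice of the genes too, and choosing SPRY2 and MGAT4D through both groups favours genes that are alike in them, so that the differences are given as a description, without a test. SPRY2 had a log2 fold change of 0.21 ± 0.46 (SE) in AI-preg minus NB-preg (95% interval -0.69 to 1.11), and between 0.01 (DESeq2 size factors) and 0.32 (without AI-preg heifer 119) over the alternatives, with 0.06 without AI-preg heifer 92. MGAT4D had one of -0.38 ± 1.02 (SE), with a 95% interval from -2.39 to 1.62, and it was 0.05 without NB-preg heifer 116, which had the most MGAT4D. DEPDC7, RABGGTB, SMIM26 and N6AMT1 were chosen through 1 of the pregnant groups, and their log2 fold changes were -0.50 ± 0.47, -0.13 ± 0.36, 0.09 ± 0.52 and 0.21 ± 0.50 (SE). Over the alternatives DEPDC7 lay between -0.75 and -0.34, both with 1 heifer left out. N6AMT1 was 0.00 without AI-preg heifer 119 and 0.29 without AI-preg heifer 92. The RABGGTB difference was 0.11 without NB-preg heifer 121 and -0.38 with DESeq2 size factors. The SMIM26 difference was -0.70 without AI-preg heifer 117 and -0.05, -0.03 and -0.07 without NB-preg heifers 93, 111 and 116, but 0.39 without NB-preg heifer 121 and 0.26 without AI-preg heifer 99, and it was -0.10 under TMM scaling and -0.13 with DESeq2 size factors, so that its sign is not settled. Over all kept genes edgeR called 0 (0%) in this comparison, with 16 at an unadjusted p under 0.05 (132 without AI-preg heifer 114, and between 7 and 44 without any 1 other heifer), and DESeq2 called 0. The rule of p at most 0.03 by both tools called 14 genes (0.128%), of which 12 (0.110%) were lower in AI-preg, and 0 of the 6 genes were among them.

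Heifers differed in how low the genes were together. The mean over the 6 genes of a heifer's log2 level minus the mean of pregnant heifers was -1.42, -0.79, -1.98, -1.80 and -1.19 in non-pregnant heifers 94, 101, 107, 113 and 115, and between -0.40 and 0.55 in pregnant heifers. The lowest values were in heifers 107 and 113, which were among the 3 with high neutrophil markers, and heifer 101 was the highest of its group in 5 of the 6 genes. Without heifers 94, 107 and 113 the log2 fold change against AI-preg was -1.29 ± 0.61 for SPRY2, -1.48 ± 1.31 for MGAT4D, -1.06 ± 0.70 for DEPDC7, -0.86 ± 0.51 for RABGGTB, -1.83 ± 0.88 for SMIM26 and -0.76 ± 0.64 for N6AMT1 (SE). Against NB-preg it was -1.08 ± 0.60, -1.87 ± 1.34, -1.56 ± 0.72, -0.99 ± 0.52, -1.74 ± 0.87 and -0.55 ± 0.63 (SE) in the same order of genes. SMIM26 thus had the same fitted difference with and without these heifers, though its SE against AI-preg was 0.58 with them and 0.88 without them. The difference of the other 5 genes was nearer to 0 without them. Only heifers 101 and 115 then stand for the non-pregnant group, so that SMIM26 is not set apart from the other genes by these fits. With the neutrophil marker level as a covariate, the log2 fold change against AI-preg was -1.64 for SPRY2, -2.91 for MGAT4D, -0.83 for DEPDC7, -1.01 for RABGGTB, -1.95 for SMIM26 and -1.0 for N6AMT1, and against NB-preg it was -1.44, -3.44, -1.53, -1.17, -1.85 and -0.92 in the same order.

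**Figure D3:**
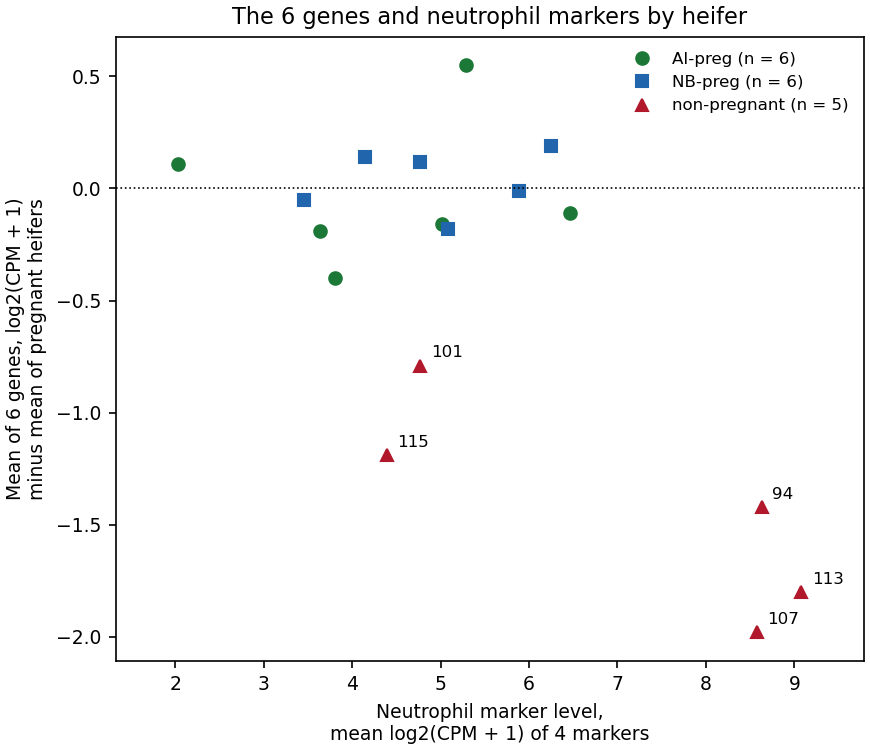
Mean of the 6 genes in each heifer, as log2(CPM + 1) minus the mean of pregnant heifers, against the neutrophil marker level, the mean log2(CPM + 1) of 4 markers, with non-pregnant heifers numbered. Heifers 94, 107 and 113 lie at marker levels of 8.63, 8.58 and 9.08, and heifers 101 and 115, at 4.77 and 4.39, lie within the pregnant range of marker levels with the 6 genes at -0.79 and -1.19.

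The same markers were compared with each gene within the 12 pregnant heifers, a comparison chosen after the data were seen. The mean neutrophil marker level was 4.37 ± 1.55 (SD, n = 6) in AI-preg, 4.93 ± 1.05 (SD, n = 6) in NB-preg and 7.09 ± 2.30 (SD, n = 5) in non-pregnant heifers. Of 6 genes, 0 passed a permutation test of Pearson's r (lowest adjusted p = 0.308), 0 had an unadjusted permutation p under 0.05, and 0 passed by Spearman's rho. Among the other kept genes, without the 4 markers, 20.3% had an unadjusted permutation p under 0.05 with the same marker level. MGAT4D had the highest r, 0.531 (permutation p = 0.0759; rho 0.580, permutation p = 0.0534), and r was 0.601 without the 2 heifers farthest from the median marker level. DEPDC7 had the lowest, -0.438 (permutation p = 0.154; rho -0.392, permutation p = 0.210), and r was -0.114 without the 2 farthest heifers. Leaving out NB-preg heifer 116 took DEPDC7 past the threshold, with r = -0.743 and an adjusted permutation p of 0.0480, while the lowest adjusted p lay between 0.148 and 0.594 in the other alternatives. Within AI-preg alone r was -0.925 for DEPDC7 and 0.838 for SPRY2, and within NB-preg alone it was -0.137 and -0.250, differences that were not tested.

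Library depth was compared in the same way, since it differed between groups. Over the 12 pregnant heifers, r of the log2 level with the log2 library total lay between -0.363 for MGAT4D and 0.0273 for DEPDC7, and 0 of 6 genes passed (permutation test, every adjusted p = 0.998), where 22.8% of all kept genes had an unadjusted permutation p under 0.05 with depth and 0 of the 6 did. The rho of MGAT4D was -0.399 (permutation p = 0.200), and its r was 0.0753 without the 2 heifers farthest in depth but -0.704 without NB-preg heifer 121, where the lowest adjusted permutation p of the 6 genes was 0.0964. Over all alternatives the lowest adjusted p lay between 0.0964 and 0.998. The relation of MGAT4D with depth thus depends on which heifers are used.

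The genes were next compared with one another over the 12 pregnant heifers, leaving out the non-pregnant heifers. The levels of the pregnant heifers entered the choice of each gene as well, but how genes vary together did not. RABGGTB and SMIM26 were correlated, with r = 0.826 (permutation p = 0.00122, adjusted over 15 pairs 0.0183) and rho = 0.818 (permutation p = 0.00195, adjusted 0.0292), and r was 0.830 within AI-preg, 0.851 within NB-preg and 0.825 for deviations from the group means (adjusted permutation p = 0.0159). Heifer 117 was the highest AI-preg heifer in both genes, and heifer 121 the highest NB-preg heifer. When heifers 121 and 117, whose RABGGTB level was farthest from the median, were left out, r was 0.650 (permutation p = 0.0415). The adjusted permutation p was 0.0552 without heifer 99, 0.0669 without heifer 117, 0.0615 without heifer 108 and 0.0654 without heifer 121, with r of 0.798, 0.796, 0.824 and 0.792, so that the call of this pair depends on single heifers while r stayed between 0.792 and 0.880 with any 1 heifer left out. This was 1 of 15 pairs called. Over the same heifers 4.23% of all pairs of kept genes had an r at least as high, and so had 0.658% of kept genes with RABGGTB and 0.603% with SMIM26. The share over all pairs is the background of the count, and 1 of 15 pairs is not far from it, so that nothing particular to these genes is read from the count.

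The other 14 pairs did not pass, and 11 of the 15 values of r were negative, down to -0.401 for RABGGTB with N6AMT1 (permutation p = 0.199, rho -0.420). MGAT4D turned from r = -0.191 to 0.687 (permutation p = 0.0296) with RABGGTB and from -0.0497 to 0.712 (permutation p = 0.0185) with SMIM26 when NB-preg heifers 121 and 116, the farthest in MGAT4D, were left out, so that the sign of these pairs rests on those heifers. With DEPDC7 it went from -0.216 to -0.643 (permutation p = 0.0492) in the same step. SPRY2 and DEPDC7 had r = -0.304 (permutation p = 0.336, rho -0.196) over the 12 heifers, with -0.890 within AI-preg and 0.801 within NB-preg. RABGGTB and N6AMT1 had 0.00959 within AI-preg and -0.909 within NB-preg. These differences between the groups were not tested.

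**Figure D4:**
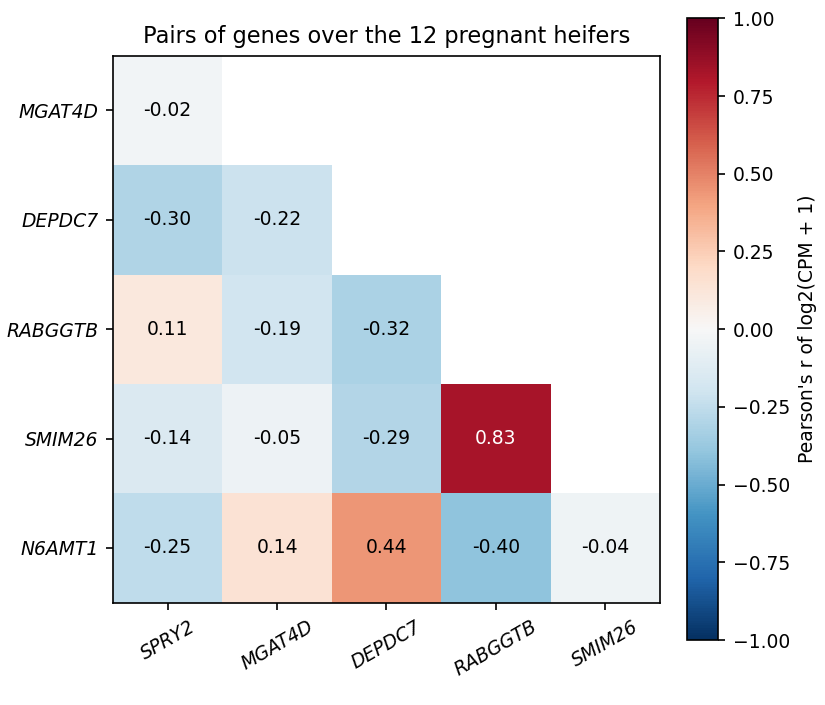
Pearson's r of log2(CPM + 1) for each of the 15 pairs of genes over the 12 pregnant heifers, from blue (negative) to red (positive). RABGGTB with SMIM26 is the pair that passed the permutation test.

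**Figure D5:**
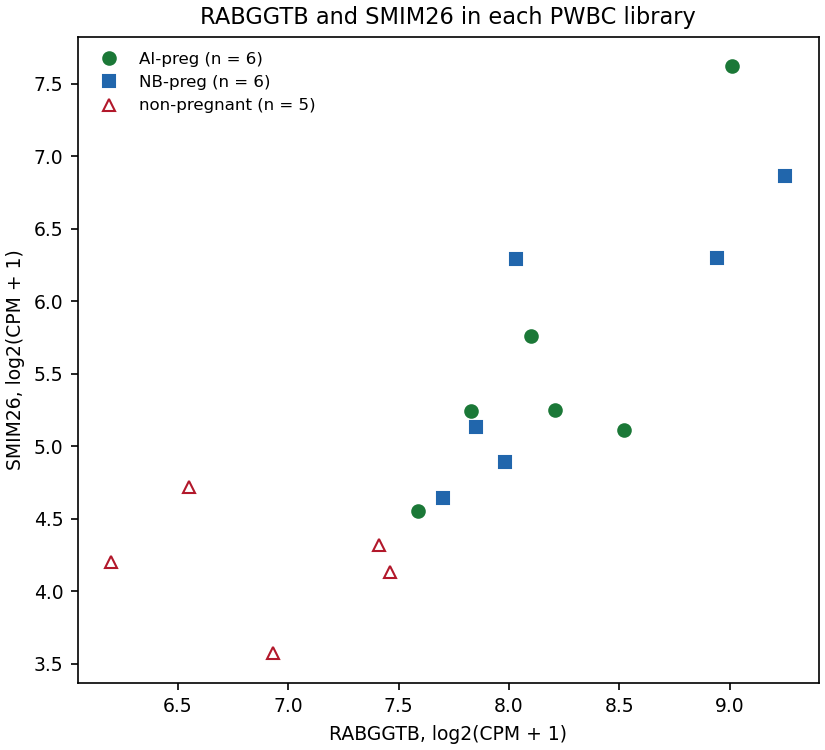
RABGGTB against SMIM26 in each PWBC library, as log2(CPM + 1), with non-pregnant heifers as open symbols. Over the 12 pregnant heifers r was 0.826, and the non-pregnant heifers, which were left out of r, lie at the low end of both axes.

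Other genes of the same pathways were taken from fixed lists, of which only those with a symbol in the study's supplementary tables could be matched to the count table. Since those tables report results from these libraries, the matched genes are no neutral sample of their lists. The 21 lists, markers included, held 222 entries for 221 genes. Of the entries, 44 were identified and kept, in 15 lists, and edgeR called 0 of these in any of the 3 comparisons. No gene of the Sprouty and SPRED family, of the ERK target genes or of the isoprenoid supply was matched.

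Of the genes in the cascade that SPRY2 restrains, MAP2K1, a MEK kinase, had a log2 fold change of -0.06 ± 0.41 (SE) against AI-preg and -0.42 ± 0.41 against NB-preg, where the medians over all kept genes were -0.15 and -0.05. RASA1, a RAS GTPase activator, was at -0.46 ± 0.57 and -0.31 ± 0.57. MAP2K2, the other MEK kinase, was at 1.95 ± 1.05 and 1.83 ± 1.05, and ARAF, a RAF kinase, at 1.62 ± 0.90 and 1.43 ± 0.89. Between the pregnant groups MAP2K1 was at -0.36 ± 0.39, and these 4 genes had no unadjusted edgeR p under 0.05 in any of the 3 comparisons. The DEP domain genes had 1 of 19 kept, PREX1, a RAC exchange factor of neutrophils, at 0.49 ± 0.57 and 1.10 ± 0.58, and at 0.60 ± 0.55 between the pregnant groups.

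Around RABGGTB, 5 of 33 Rab GTPases and their partners were kept, with a median log2 fold change of 1.22 against AI-preg, 1.04 against NB-preg and -0.30 between the pregnant groups. RAB31 and RAB3D, of which RAB3D serves in the release of granules, were at 1.34 ± 0.42 and 1.82 ± 0.60 (SE) against AI-preg, and at 1.04 ± 0.42 and 1.25 ± 0.59 against NB-preg. Their unadjusted edgeR p-values, from a fit over 17 libraries, were 0.00464 and 0.00619 against AI-preg and 0.0218 and 0.0470 against NB-preg, none past the adjusted threshold (adjusted p 0.780 and 0.778). RAB14 was at -0.37 ± 0.31 and -0.32 ± 0.30. The neutrophil markers were also high in non-pregnant heifers 94, 107 and 113, and their part in the levels of the Rab genes was not tested. Of the protein prenylation enzymes 2 of 10 were kept, with medians of -0.58, -0.46 and 0.12. ZMPSTE24, the protease that processes farnesylated prelamin, was at -1.01 ± 0.54 and -1.06 ± 0.54, and CHML, a Rab escort protein, at -0.15 ± 0.57 and 0.13 ± 0.57.

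The methyltransferases that share TRMT112 with N6AMT1, together with its substrates, had 2 of 10 genes kept, with medians of -0.42, -0.66 and -0.24. TRMT11, a tRNA guanosine methyltransferase, was at -0.75 ± 0.35 and -0.74 ± 0.35 (SE), with an unadjusted edgeR p of 0.0457 and 0.0484 and an adjusted p of 0.780 and 0.778. BUD23, an 18S rRNA methyltransferase, was at -0.10 ± 0.63 and -0.59 ± 0.63. Of the N-glycan branching genes 4 of 15 were kept, with medians of -0.49, -0.14 and 0.28 and 0 genes at an unadjusted p under 0.05. MGAT4A, an active relative of MGAT4D, was at -0.18 ± 0.39 and 0.01 ± 0.38, MGAT2 at -0.50 ± 0.44 and -0.13 ± 0.44, and MAN1A1, a Golgi mannosidase, at -0.47 ± 0.56 and -0.71 ± 0.56. Between the pregnant groups MGAT2 was at 0.37 ± 0.42 and MAN2A1 at 0.38 ± 0.63.

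Of the mitochondrial genes listed beside SMIM26, 6 of 13 were kept, with medians of 0.33, 0.56 and -0.07. SLC25A11, the oxoglutarate carrier of the inner membrane, was at 1.94 ± 1.15 and 2.14 ± 1.15 (SE), and TIMM10, an import chaperone, at 1.80 ± 1.25 against AI-preg. In both contrasts 2 of the 6 genes were negative, NDUFB3 at -0.63 ± 0.54 and -0.77 ± 0.55 and NDUFA1 at -0.45 ± 0.79 and -0.75 ± 0.80. NDUFS5 was at 1.10 ± 0.73 against NB-preg, NDUFA1 at -0.30 ± 0.75 between the pregnant groups, and 0 of the 6 had an unadjusted edgeR p under 0.05. SMIM7, another gene named for a small integral membrane protein, was at 0.25 ± 0.56 and 0.03 ± 0.56, with no unadjusted p under 0.05.

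The genes most alike each of the 6 were those with the highest r of log2(CPM + 1) over all 17 libraries, given as a description because the libraries that chose the 6 genes enter it. SMIM26 had UBE2K, a ubiquitin-conjugating enzyme, among its 3 most alike genes (r = 0.929, and 0.929 over pregnant heifers alone). SPRY2 had ADCY7, an adenylyl cyclase of blood cells, at r = 0.857, but at 0.144 over pregnant heifers alone. N6AMT1 had ELOVL5, an enzyme of fatty acid elongation, at r = 0.840 and 0.541. The values over pregnant heifers are part of those that picked these genes and are no separate support. The most alike genes of RABGGTB (ENSBTAG00000031829, r = 0.921) and DEPDC7 (ENSBTAG00000044175, r = 0.901) had no symbol in the tables, and over pregnant heifers alone their r was 0.836 and 0.850. For MGAT4D the highest r was 0.794, with a gene that also had no symbol.

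In the RefSeq annotation of assembly ARS-UCD2.0, which was used for names and neighbours alone, 5 of 6 genes were found by symbol, and SMIM26 was not. SPRY2 lay between NDFIP2 and SLITRK1, MGAT4D between ELMOD2 and CLGN, DEPDC7 between QSER1 and TCP11L1, RABGGTB between MSH4 and ACADM, and N6AMT1 between LTN1 and ADAMTS5. RABGGTB overlapped 2 small nucleolar RNA genes and MGAT4D overlapped 1 long non-coding RNA gene. None of these 5 had another of the 6 genes as its neighbour.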

How the data were processed

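The authors deposited raw counts per Ensembl gene, for PWBC fragments and for plasma small RNA reads, in 17 libraries each. Per the labels, reads were aligned with HISAT2 2.1.0 to ARS-UCD1.2 and counted with featureCounts 1.6.0. The Ensembl release differs between the methods text and the authors' code. The protocol names 6 non-pregnant heifers where the tables hold 5, since the paper removed a non-pregnant animal for low sequencing yield. All columns were used (0 left out). Genes with at least 2 CPM in 5 libraries were kept, and levels were log2(CPM + 1) over kept-gene totals. One fit of 3 groups used edgeR 4.0.16 quasi-likelihood tests with library totals and Benjamini-Hochberg adjustment over 10942 genes, with DESeq2 1.42.0 beside it (R 4.3.3). Correlations used 100000 two-sided permutations in Python 3.11.15 with scipy 1.17.1, adjusted within each family; shares over all kept genes were computed the same way.

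The genes and lists were chosen with earlier results of these data known; the correlation with the neutrophil marker level was chosen after the data were seen. Named genes were the 6 genes, the 3 genes most alike each, those of each list with the smallest p per comparison, relatives fixed by name where kept, and the most abundant marker of each marker list; genes without a symbol were named in 2 cases. RAB14 and NDUFB3 were named after their values were seen. Symbols came from the supplementary tables, for 2335 of 27570 genes and 2228 of the 10942 kept. Lists covered markers of leukocytes, neutrophils, monocytes, T cells, NK cells, eosinophils, red cells and platelets, and pathways around each gene. Alternatives changed the scaling, the tool, the filter, the pseudocount, the covariate and the heifers used. The code was tested on simulated data. Sequences of the 6 genes were not at hand.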

Additional observations from a re-analysis of the deposited data

Results flagged for a closer look

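The plasma small RNA libraries, which none of the comparisons above used, held 14 reads assigned to 5 of the 6 genes, in 4 AI-preg heifers. In AI-preg heifer 120, 4 reads were assigned to RABGGTB, above the 3 counts that an empty library allows. The plasma library of this heifer was the shallowest, with 1073910 counts, where that of non-pregnant heifer 107 held 17024777. RABGGTB overlaps 2 small nucleolar RNA genes, and their part in these reads was not tested. RABGGTB had 7 plasma reads in all, SMIM26 had 3, SPRY2 had 2, DEPDC7 and N6AMT1 had 1 each, and MGAT4D had 0. A search for a heifer far from the rest of its group, over 21 groups of values, found 0, where chance gives about 1 in 20.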

How the results depend on the processing

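With DESeq2 in place of edgeR, 5 genes were called in non-pregnant against AI-preg and 11 against NB-preg, all higher in non-pregnant heifers; the cause was not tested. DESeq2 size factors in edgeR moved the median log2 fold change of all kept genes from -0.15 to 0.16, from -0.05 to 0.13 and from 0.09 to -0.02 in the 3 comparisons, and called 0 genes. Without heifers 94, 107 and 113 the log2 fold change of MGAT4D was -1.48 against AI-preg and -1.87 against NB-preg, with fewer samples. With 1 heifer left out, it ranged from -4.41 to -2.60 and from -4.80 to -2.98, and from -0.64 to 0.05 in AI-preg minus NB-preg. With the neutrophil covariate that of DEPDC7 against AI-preg was -0.83. With a pseudocount of 0.5 the mean log2 level of MGAT4D in non-pregnant heifers was -0.45, since 3 libraries are empty. The count of correlated pairs ranged from 0 to 1 and the r of RABGGTB with SMIM26 from 0.792 to 0.880 with 1 heifer left out; the count of genes correlated with the neutrophil markers ranged from 0 to 1. Log2 fold changes of the 6 genes in non-pregnant minus pregnant heifers stayed negative in every alternative, which the choice of genes fixes. A filter at 5 CPM removed MGAT4D. No paired analysis was possible because no heifer is in 2 groups. An alternative with protein-coding genes alone was not run, since the files do not pair gene types with these IDs. Depth limits MGAT4D most, with 5 counts or fewer in every non-pregnant library.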

Other observations

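Some markers of other cell types were measured in the same libraries. CD79A, a chain of the B cell antigen receptor, had medians of 56.3, 29.6 and 167 CPM in the AI-preg, NB-preg and non-pregnant groups, and ran from 3.56 to 504 CPM among non-pregnant heifers. Its log2 fold change was 1.17 ± 0.96 (SE) against AI-preg and 1.37 ± 0.97 against NB-preg, not called by edgeR (adjusted p = 0.786 and 0.801). The NK cell markers had 1 of 4 kept, NKG7, a protein of cytotoxic granules, with a median of 18.3 CPM in AI-preg, 21.4 in NB-preg and 20.4 in non-pregnant heifers, and a log2 fold change of 0.70 ± 0.60 (SE) against AI-preg and 0.35 ± 0.60 against NB-preg. The medians hide a spread among the non-pregnant heifers, where NKG7 was at 69.6 and 50.3 CPM in heifers 94 and 113, above the highest pregnant heifer at 41.2, and at 2.83 CPM in heifer 115, below the lowest at 7.60.

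Of the eosinophil markers 2 of 4 were kept (IL5RA and GATA1). IL5RA, the interleukin-5 receptor of eosinophils, was the more abundant, with medians of 10.5, 4.67 and 21.2 CPM in the same order of groups. Its log2 fold change was 0.96 ± 0.51 (SE) against AI-preg and 1.79 ± 0.52 against NB-preg, where edgeR did not call it (adjusted p = 0.778) and DESeq2 did (adjusted p = 0.0280). The summed eosinophil level was 28.1, 12.9, 44.7, 24.9 and 15.5 CPM in non-pregnant heifers 94, 101, 107, 113 and 115, with no more than 18.1 CPM in any pregnant heifer. The neutrophil receptor CSF3R was higher by 4.23 ± 1.19 against AI-preg and 4.17 ± 1.18 against NB-preg on the log2 scale (SE), called by DESeq2 (adjusted p = 0.0216 and 0.0280) and not by edgeR (0.780 and 0.778). TREM1, a receptor of neutrophils and monocytes, was at 1.83 ± 0.73 and 2.0 ± 0.74, and the median over the 4 neutrophil markers was 2.78 and 2.28, with 0.05 between the pregnant groups. The general leukocyte markers had medians of -0.12, -0.13 and 0.18 in the 3 comparisons. These medians cover genes that went opposite ways. PTPRC was at -0.72 ± 0.80 (SE) against AI-preg and -0.20 ± 0.79 against NB-preg, and CORO1A at 1.51 ± 0.85 and 1.69 ± 0.86.

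The platelet markers had 2 of 6 kept, ITGA2B and TUBB1, with TUBB1 the more abundant. TUBB1, the tubulin of platelets, had medians of 831, 371 and 85.0 CPM in the AI-preg, NB-preg and non-pregnant groups, and 0.0646 CPM in the lowest non-pregnant heifer. Its log2 fold change was -1.10 ± 1.43 (SE) against AI-preg and -0.86 ± 1.42 against NB-preg, and that of ITGA2B was 2.04 ± 1.09 and 1.83 ± 1.08. The summed platelet level ran from 8.13 to 1889 CPM among NB-preg heifers and from 41.5 to 1530.2 CPM among non-pregnant heifers, a wide spread within each group. Of the monocyte, T cell and red cell markers 0 of 5, 0 of 5 and 0 of 6 could be matched by symbol, so that nothing is said about these cells. The part of B cells, eosinophils, NK cells and platelets in the levels of the 6 genes was not tested.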
